A study of Rattus norvegicus with 4 samples.

Results

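The genes described here encode the machinery that stores transmitter in synaptic vesicles and releases it by exocytosis, together with relatives that serve membrane traffic in all cells. They were chosen by gene symbol: synaptotagmins, syntaxins and their binding proteins, SNAP and VAMP proteins, synapsins, SV2 proteins, complexins, synaptogyrins, Unc13 and Rims proteins, every symbol that starts with Rab3, and Syp, Bsn, Pclo, Napa, Napb, Nsf and Dnm1. The rule found 97 of 17853 genes of the deposited table, and 91 of the 97 had a mean of at least 1 RPKM, a read density scaled to gene length and library size. It also caught Rab proteins that are not Rab3, Snap29 and Snap47, so the set is wider than the nerve terminal. The endocytic adaptor gene Snap91 was caught by its symbol too and is counted below as presynaptic. The 6 members under 1 RPKM were Cplx4, Syngr4, Syt8, Syt15, Rab38 and Stxbp4.

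Brain tissue was taken from rats that had an intracerebral hemorrhage, in which blood escapes from a vessel into brain tissue. There was 1 library in each of 4 groups: ipsilateral (the side of the bleeding) at 21 months of age, contralateral (the opposite side) at 21 months, ipsilateral at 13 months and contralateral at 13 months. All 4 groups carried the hemorrhage, and tissue of rats without it was not analysed here. RNA was pooled, and the labels name 9 brains without saying how they were split over the libraries. Titles mark the ipsilateral tissue L and the contralateral tissue R, so the side of the bleeding and the side of the body cannot be told apart. Strain, hemorrhage model, dissected region and time after the bleeding were not stated in the labels. Single values carry no replicate error, and the depth is unknown because the table holds no read counts.

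At a synapse, vesicles dock at the active zone, a protein scaffold of bassoon, piccolo, RIM and Munc13 proteins. The vesicle SNARE synaptobrevin zips up with syntaxin and SNAP-25 of the plasma membrane, complexin holds the complex, and synaptotagmin triggers fusion when calcium enters. NSF and its adaptors take spent complexes apart. Other cells use related SNARE, Munc18 and Munc13 proteins to secrete granules and to move cargo between endosomes, Golgi and plasma membrane.

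Presynaptic members were mostly lower on the side of the bleeding, by more at 13 than at 21 months. The side ratio of a gene is here log2 of the ipsilateral over the contralateral level, with 1 RPKM added to each. Presynaptic members are the 53 tested genes in the lists of neuronal SNAREs and their regulators, vesicle membrane proteins, synaptotagmins, active zone, Rab3 proteins and endocytosis. Their median side ratio was -0.11 at 21 months and -0.44 at 13 months, whereas the medians over the 12160 genes that averaged 1 RPKM or more were 0.09 and 0.01. At 21 months 36 of 53 lay below 0, and at 13 months 49 of 53. The quartiles were -0.26 and 0.02 at 21 months and -0.49 and -0.32 at 13 months, so the 13-month values formed a narrow band below 0. The other 38 members, Rabs, Rab3 regulators and SNAREs of general traffic, had medians of 0.06 at 21 months, which was -0.05 with libraries set to equal sums without mitochondrial genes, and 0.02 at 13 months. Scaling by median ratio moved the 21-month median of all genes to -0.0047, and 21-month side ratios of members just above 0, such as that of Snap25, then lay below 0. The presynaptic members summed to 3281 RPKM ipsilaterally against 3540.4 RPKM contralaterally at 21 months (92.7%), and to 2677 RPKM ipsilaterally against 3738 RPKM contralaterally at 13 months (71.6%).

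Over all 91 members tested, 52 lay below 0 at 21 months (57.1%, against 38.9% of all genes) and 67 at 13 months (73.6%, against 48.9% of all genes). Both ipsilateral libraries lay below both contralateral ones in 40 members (44%, against 22.1% of all genes), of which 33 were presynaptic, and above them in 15 members (16.5%, against 34.4% of all genes). A side ratio of 1 or more was reached by 6 members at 21 months (6.59%, against 5.61% of all genes) and by 6 at 13 months (6.59%, against 7.19% of all genes), and -1 or less by 0 members at 21 months (against 0.288% of all genes) and 0 at 13 months (against 0.0658%). With a limit of 0.5, 11 members were lower at 13 months (12.1%, against 4.09% of all genes), all of them presynaptic, and 1 was lower at 21 months (1.1%, against 2.94% of all genes), namely Rab3c. In the upward direction the same limit gave 10 members at 21 months (11%, against 16.3% of all genes) and 14 at 13 months (15.4%, against 15.2% of all genes).

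Side was tested over both ages, in limma with age as a term, with 2 libraries per side, 1 residual degree of freedom and Benjamini-Hochberg adjustment over all genes. It called 12 of 91 members as risen on the side of the bleeding (13.2%, against 13.3% of all genes) and 1 as fallen (1.1%, against 0.814% of all genes), so members were called about as often as any gene. In the presynaptic lists Rab3c fell, and Syngr2 and Unc13d rose. Syngr2 and Unc13d are in these lists by gene family and are described below by roles in non-neuronal cells. The other genes of the presynaptic lists did not pass, and their lower medians are a description of these 4 libraries. With no filter on low values limma made 0 calls among all genes, while 12 higher and 17 lower members had an unadjusted p under 0.05, so every call below rests on a filter. The SE printed below for a gene is drawn mostly from the variance of all genes and is not a replicate error of that gene. Age over both sides was not tested.

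Markers of other cells differed between the same libraries. The 15 neuron markers summed to 1842 RPKM ipsilaterally against 2178 RPKM contralaterally at 21 months (84.6%), and to 1627 RPKM ipsilaterally against 2189 RPKM contralaterally at 13 months (74.3%). The 14 of them that were tested had medians of -0.25 and -0.39, and 2 of 14 fell in limma (Nefm and Nefh). None of the 15 was at exactly 0, but Eno2, the 1 not tested, had at most 0.05 RPKM in any library. The 11 microglia and macrophage markers summed to 271 RPKM ipsilaterally against 59.7 RPKM contralaterally at 21 months, and to 357 RPKM ipsilaterally against 71.5 RPKM contralaterally at 13 months, and 10 of 11 rose in limma. One of the 10, Msr1, had 0.46 and 0.71 RPKM contralaterally at 21 and 13 months. It passed the level filter through its ipsilateral values and so had to be higher there. The sum of the neuron markers was lower and that of the phagocyte markers higher on the side of the bleeding at both ages. Region markers differed as well, with median side ratios at 21 and 13 months of 0.13 and -0.41 for 10 cortex markers, -0.24 and -0.57 for 12 striatum markers and -0.35 and -0.61 for 8 thalamus markers. In limma 2 of the striatum, 5 of the thalamus and 0 of the cortex markers fell. Of 9 choroid plexus markers tested 5 fell, with medians of -0.60 and -0.47, and of 10 astrocyte markers Gfap alone rose (side ratios 1.85 and 1.37), with medians of 0.10 and -0.13. The 11 oligodendrocyte markers had medians of 0.28 and -0.07, and 0 of them passed in limma. The part of cell or region make-up in the members' ratios was not tested. In pooled tissue, fewer cells of a type and less RNA per cell cannot be told apart.

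**Figure D1:**
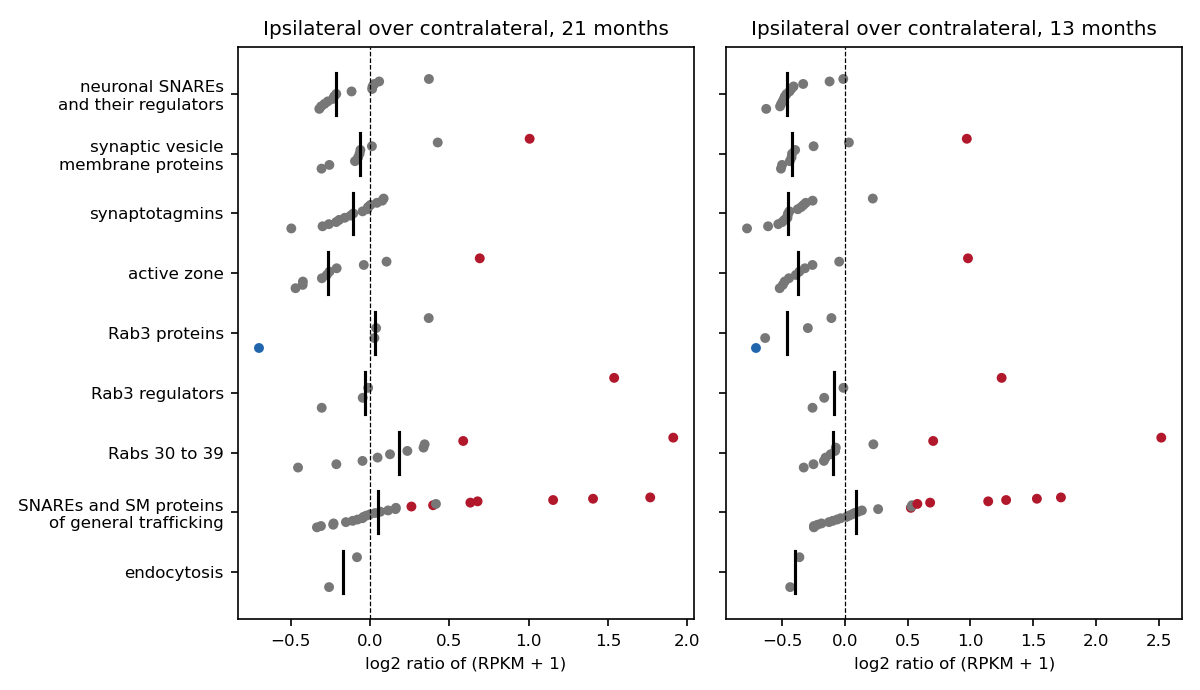
Side ratios (log2 of ipsilateral over contralateral RPKM + 1, x axis) of the 91 members tested, by role list, at 21 months and at 13 months. Each point is 1 gene, the black bar is the median of a list, red points rose and the blue point fell over both ages in limma, and grey points did not pass; the medians of the presynaptic lists lie left of 0 at 13 months, between -0.46 and -0.38.

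Among the neuronal SNAREs, Snap25 (ENSRNOG00000006037), the SNAP-25 of the plasma membrane, had 397 RPKM ipsilaterally against 389.6 RPKM contralaterally at 21 months, and 298 RPKM ipsilaterally against 460.1 RPKM contralaterally at 13 months. Its side ratios were 0.03 at 21 months and -0.63 at 13 months, and the first was -0.08 when libraries were scaled by their median ratio. The sides were thus close at 21 months, and the 13-month ipsilateral library was the lowest of the 4. Vamp2 (ENSRNOG00000006989), synaptobrevin 2 of the vesicle, had 246 RPKM ipsilaterally against 288 RPKM contralaterally at 21 months, and 212 RPKM ipsilaterally against 297 RPKM contralaterally at 13 months. Both ipsilateral libraries lay under both contralateral ones, with side ratios of -0.23 and -0.49. Stx1a, syntaxin 1A, had 62.4 RPKM ipsilaterally against 77.5 RPKM contralaterally at 21 months, and 62.1 RPKM ipsilaterally against 78.4 RPKM contralaterally at 13 months. Its side ratios of -0.31 and -0.33 were nearly the same at both ages. Vamp1, synaptobrevin 1, was nearer to Snap25 in pattern, with side ratios of 0.06 and -0.41.

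Among regulators of the SNARE complex, the complexins, which bind the assembled complex, differed from each other: Cplx1 had side ratios of 0.01 and -0.52, Cplx2 -0.32 and -0.48 and the low-level Cplx3 0.37 and -0.43. Nsf, the ATPase that recycles SNAREs, had 171 RPKM ipsilaterally against 185 RPKM contralaterally at 21 months, and 149 RPKM ipsilaterally against 211 RPKM contralaterally at 13 months. Its side ratios were -0.12 and -0.50, and those of Napb, the brain form of its adaptor, were -0.21 and -0.44. The tomosyn genes Stxbp5 and Stxbp5l, whose proteins inhibit SNARE assembly, had the larger difference at 21 months, with -0.29 and -0.01 for Stxbp5 and -0.27 and -0.12 for Stxbp5l. In limma 0 of the 13 neuronal SNARE genes tested passed, the lowest adjusted p being 0.15 for Cplx2. At an unadjusted p under 0.05, 1 of 13 was lower, against 544 of all 12160 genes.

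**Figure D2:**
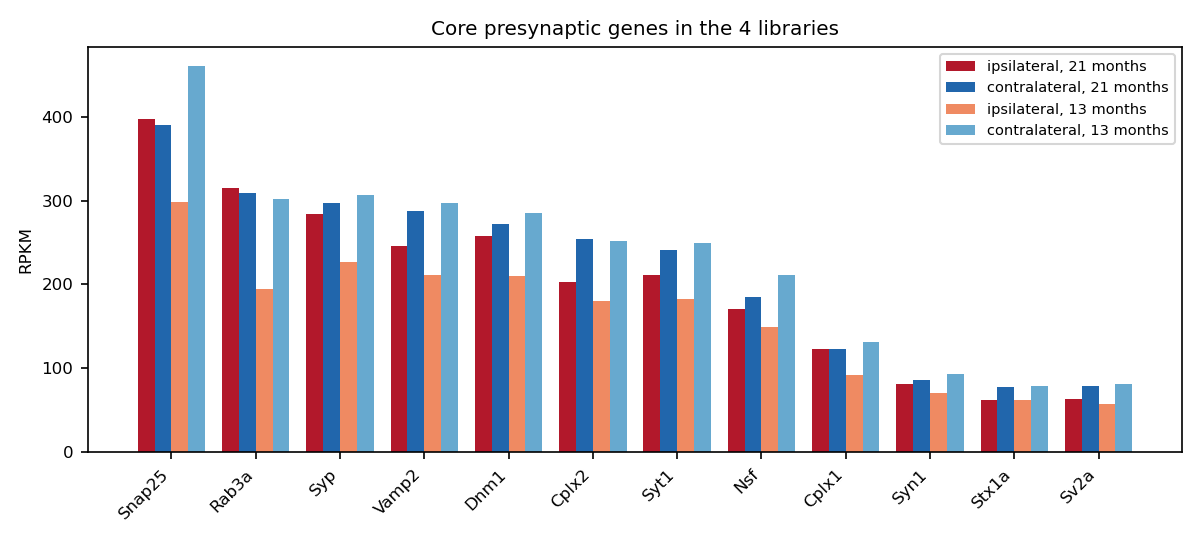
RPKM (y axis) of core presynaptic genes in the 4 libraries, with 1 bar per library and no replicate error. Snap25, for example, stands at 298 RPKM in the 13-month ipsilateral library, under the 389.6 to 460.1 RPKM of the other 3.

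Vesicle membrane and coat genes had median side ratios of -0.07 and -0.42, with 6 of 9 below 0 at 21 months and 7 of 9 at 13 months. Syp, synaptophysin, had 284 RPKM ipsilaterally against 297 RPKM contralaterally at 21 months, and 226 RPKM ipsilaterally against 307 RPKM contralaterally at 13 months. This gave side ratios of -0.07 and -0.44. Syn1, a synapsin that tethers vesicles, had 81.4 RPKM ipsilaterally against 85.8 RPKM contralaterally at 21 months, and 70.7 RPKM ipsilaterally against 93.3 RPKM contralaterally at 13 months. Its side ratios of -0.08 and -0.40 were close to those of Syn2, -0.06 and -0.42, while Syn3 was near the level filter with 0.01 and 0.03. Sv2a, a vesicle glycoprotein and the target of the drug levetiracetam, had 63.6 RPKM ipsilaterally against 78.8 RPKM contralaterally at 21 months, and 56.8 RPKM ipsilaterally against 80.7 RPKM contralaterally at 13 months. It was lower on the side of the bleeding at each age, with -0.31 and -0.50. The synaptogyrins, vesicle membrane proteins, split into Syngr1 with -0.09 and -0.42, Syngr3 with 0.43 and -0.51 and the risen Syngr2.

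Of 17 synaptotagmins 15 were tested, and 11 of 15 at 21 months and 14 of 15 at 13 months lay below 0, the exception at 13 months being Syt14 (0.22). Syt1, the fast calcium sensor of forebrain synapses, had 211 RPKM ipsilaterally against 241 RPKM contralaterally at 21 months, and 183 RPKM ipsilaterally against 249 RPKM contralaterally at 13 months. Its side ratios were -0.19 and -0.44, but it held a steady share of the summed synaptotagmin RPKM, 37.0% ipsilaterally against 38.3% contralaterally at 21 months and 36.9% against 37.4% at 13 months. Syt9, a further fast sensor, had 5.73 RPKM ipsilaterally against 5.38 RPKM contralaterally at 21 months, and 3.37 RPKM ipsilaterally against 6.5 RPKM contralaterally at 13 months. Its -0.78 was the lowest 13-month side ratio of the members tested, against 0.08 at 21 months. Syt4, an activity-induced form, went the other way in age, with 53.8 RPKM ipsilaterally against 76.3 RPKM contralaterally at 21 months, and 67.6 RPKM ipsilaterally against 84.1 RPKM contralaterally at 13 months. That is -0.50 and -0.31 as side ratios. Syt2, a fast sensor, had -0.16 and -0.61, and Syt7, a slower sensor of high affinity, had -0.30 and -0.46. In limma 0 of 15 passed, the lowest adjusted p being 0.14 for Syt4. At an unadjusted p under 0.05, 4 of 15 were lower, against 544 of all 12160 genes.

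The active zone list had the lowest median of the presynaptic lists at 21 months, -0.26, with -0.38 at 13 months. Rims1, which links Rab3 to Munc13, had 18.9 RPKM ipsilaterally against 25.6 RPKM contralaterally at 21 months, and 16.9 RPKM ipsilaterally against 24.7 RPKM contralaterally at 13 months. The sides did not overlap, but the fitted difference of -0.47 ± 0.17 (SE, 2 libraries per side; adjusted p = 0.072 in limma) did not pass; it passed under both other scalings, with an adjusted p of 0.027 in limma for the median ratio. Pclo, piccolo, had 6.33 RPKM ipsilaterally against 8.84 RPKM contralaterally at 21 months, and 6.73 RPKM ipsilaterally against 9.13 RPKM contralaterally at 13 months. Its side ratios of -0.42 and -0.39 were alike at both ages, as were those of Rims3, -0.26 and -0.26. Bsn, bassoon, had 5.85 RPKM ipsilaterally against 6.04 RPKM contralaterally at 21 months, and 4.48 RPKM ipsilaterally against 6.72 RPKM contralaterally at 13 months. The side ratios of Bsn were -0.04 and -0.49. Unc13a, Munc13-1, which primes vesicles, had 10.1 RPKM ipsilaterally against 12.4 RPKM contralaterally at 21 months, and 8.49 RPKM ipsilaterally against 12.2 RPKM contralaterally at 13 months, with side ratios of -0.27 and -0.48. Unc13c had -0.47 and -0.32 and Unc13b -0.21 and -0.05.

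Rab3c (ENSRNOG00000011623), a GTPase of synaptic vesicles, was the 1 member that fell. It had 9.93 RPKM ipsilaterally against 16.8 RPKM contralaterally at 21 months, and 10.4 RPKM ipsilaterally against 17.7 RPKM contralaterally at 13 months. The sides were apart and the ages alike, with side ratios of -0.70 and -0.71 and a fitted log2 difference of -0.70 ± 0.17 (SE, 2 libraries per side; adjusted p = 0.0048 in limma). Rab3a, the most abundant Rab3, had 315 RPKM ipsilaterally against 309 RPKM contralaterally at 21 months, and 194 RPKM ipsilaterally against 302 RPKM contralaterally at 13 months. The 13-month ipsilateral library stood far under the other 3, with side ratios of 0.03 and -0.63, the first being -0.08 with median-ratio scaling. Rab3b had 0.04 and -0.29 and Rab3d, known from secretory cells, 0.37 and -0.11. Dnm1, the dynamin that pinches off endocytic vesicles, had 257 RPKM ipsilaterally against 272 RPKM contralaterally at 21 months, and 210.5 RPKM ipsilaterally against 285 RPKM contralaterally at 13 months. Its side ratios were -0.08 and -0.44, and those of the clathrin adaptor gene Snap91 were -0.26 and -0.36.

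The 12 members that rose were Rab32, Stxbp2, Rab3il1, Vamp8, Syngr2, Stx11, Vamp5, Snap23, Unc13d, Rab31, Snap29 and Vamp3. Stxbp2, Munc18-2, which in people is needed for granule release by cytotoxic lymphocytes, had 5.84 RPKM ipsilaterally against 1.01 RPKM contralaterally at 21 months, and 5.89 RPKM ipsilaterally against 1.09 RPKM contralaterally at 13 months. The ages were nearly identical, and the fitted difference was 1.74 ± 0.17 (SE, 2 libraries per side; adjusted p = 7.2e-08 in limma). Stx11, syntaxin 11, which serves the same release in people, had 1.16 RPKM ipsilaterally against 0.35 RPKM contralaterally at 21 months, and 2.41 RPKM ipsilaterally against 0.4 RPKM contralaterally at 13 months. Its fitted difference was 0.98 ± 0.18 (SE, 2 libraries per side; adjusted p = 0.00037 in limma). Unc13d, Munc13-4, a priming factor of such granules, had 1.73 RPKM ipsilaterally against 0.69 RPKM contralaterally at 21 months, and 1.96 RPKM ipsilaterally against 0.5 RPKM contralaterally at 13 months, and a fitted difference of 0.84 ± 0.17 (SE, 2 libraries per side; adjusted p = 0.0011 in limma). Stx11 and Unc13d passed the level filter through their ipsilateral values and so had to be higher there. Gzmb, at 0 in the 13-month contralateral library, was at most 0.12 RPKM in any library, and Nkg7 at most 0.65 RPKM. The 12 lymphocyte markers, these 2 included, summed to 31.2 RPKM ipsilaterally against 6.91 RPKM contralaterally at 21 months, and to 46.2 RPKM ipsilaterally against 6.99 RPKM contralaterally at 13 months. Cd4 and Cd8a, the 2 of the 12 that passed the level filter, carried most of these sums, with Cd4 at 18.97 RPKM ipsilaterally against 5.87 RPKM contralaterally at 21 months, and 14.5 RPKM ipsilaterally against 5.4 RPKM contralaterally at 13 months, and Cd8a at 8.32 RPKM ipsilaterally against 0.25 RPKM contralaterally at 21 months, and 21.8 RPKM ipsilaterally against 0.51 RPKM contralaterally at 13 months. Rat macrophages are known to carry CD4 as well. Like Stx11 and Unc13d, Cd8a passed the level filter through its ipsilateral values and so had to be higher there. The genes Cd3d, Cd3e and Cd3g of the T cell receptor complex were at most 1.60 RPKM in any library. The 9 neutrophil markers summed to 577 RPKM ipsilaterally against 29.1 RPKM contralaterally at 21 months, and to 786 RPKM ipsilaterally against 42.5 RPKM contralaterally at 13 months. The 4 of them tested (S100a8, S100a9, Csf3r and Lcn2) rose in limma. Lcn2 alone had 539.5 RPKM ipsilaterally against 20.1 RPKM contralaterally at 21 months, and 723 RPKM ipsilaterally against 37.6 RPKM contralaterally at 13 months. Mpo was at most 0.04 RPKM, and Cxcr2, at 0 in the 21-month contralateral library, was at most 0.38 RPKM in any library. Under the level filter, Ngp was lower ipsilaterally at 21 months (0.06 against 0.21 RPKM) and at 13 months (0.06 against 0.17 RPKM). Camp was lower at 21 months (0.17 against 0.31 RPKM) and higher at 13 months (0.42 against 0.08 RPKM). The part of these cells in the 3 genes was not tested.

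Vamp8 (ENSRNOG00000012748), endobrevin, a SNARE of endosomes and of secretion in non-neuronal cells, was the most abundant of the 12. It had 94.1 RPKM ipsilaterally against 41.7 RPKM contralaterally at 21 months, and 94.2 RPKM ipsilaterally against 42.1 RPKM contralaterally at 13 months. The sides stood far apart and the ages agreed closely, with a fitted difference of 1.15 ± 0.17 (SE, 2 libraries per side; adjusted p = 2.4e-05 in limma). Snap23, the broadly expressed relative of Snap25, had 12.8 RPKM ipsilaterally against 10.5 RPKM contralaterally at 21 months, and 24.98 RPKM ipsilaterally against 8.0 RPKM contralaterally at 13 months. Its side ratios of 0.26 and 1.53 gave the largest difference between ages of any member tested, and its fitted difference of 0.90 ± 0.22 (SE, 2 libraries per side; adjusted p = 0.0058 in limma) did not pass without age as a term (adjusted p = 0.16). Vamp5 had 8.78 RPKM ipsilaterally against 2.69 RPKM contralaterally at 21 months, and 4.73 RPKM ipsilaterally against 2.98 RPKM contralaterally at 13 months. Here the larger side ratio was that of 21 months, 1.41 and 0.53. Vamp3, cellubrevin of recycling endosomes, had 32.3 RPKM ipsilaterally against 24.3 RPKM contralaterally at 21 months, and 40.7 RPKM ipsilaterally against 25.1 RPKM contralaterally at 13 months. Its side ratios were 0.40 and 0.68 (adjusted p = 0.038 in limma), and its call was lost in 6 of 7 alternative fits. Snap29, a SNARE of autophagosomes and endosomes, had 19.0 RPKM ipsilaterally against 11.9 RPKM contralaterally at 21 months, and 18.5 RPKM ipsilaterally against 12.1 RPKM contralaterally at 13 months. Syngr2, a synaptogyrin of non-neuronal cells, had 8.06 RPKM ipsilaterally against 3.51 RPKM contralaterally at 21 months, and 7.92 RPKM ipsilaterally against 3.55 RPKM contralaterally at 13 months. Both differed by side and little by age, with side ratios of 0.63 and 0.58 for Snap29 and 1.01 and 0.97 for Syngr2. The call of Snap29 was lost when libraries had equal sums without mitochondrial genes (adjusted p = 0.076 in limma).

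Rab32, a Rab of lysosome-related organelles, had the highest side ratios of the members tested. It had 6.79 RPKM ipsilaterally against 1.07 RPKM contralaterally at 21 months, and 12.7 RPKM ipsilaterally against 1.39 RPKM contralaterally at 13 months. The side ratios were 1.91 and 2.52, and the fitted difference was 2.22 ± 0.18 (SE, 2 libraries per side; adjusted p = 5.8e-09 in limma). Rab3il1, an exchange factor for Rab proteins, had 17.98 RPKM ipsilaterally against 5.53 RPKM contralaterally at 21 months, and 16.4 RPKM ipsilaterally against 6.31 RPKM contralaterally at 13 months. That gave side ratios of 1.54 and 1.25. Rab31, a Rab of the Golgi and endosomes, had 39.6 RPKM ipsilaterally against 26.04 RPKM contralaterally at 21 months, and 46.2 RPKM ipsilaterally against 28.0 RPKM contralaterally at 13 months, with side ratios of 0.59 and 0.70. Its call was lost at equal sums without mitochondrial genes (adjusted p = 0.0606 in limma). The other Rabs tested lay between -0.45 (Rab37) and 0.34 (Rab35) at 21 months and between -0.33 (Rab36) and 0.23 (Rab34) at 13 months. Of the 24 SNAREs and Munc18-like genes of general traffic tested, 7 rose, 0 fell and 17 did not pass, against 13.3% of all genes risen and 0.814% fallen. Among the 17 were the plasma membrane syntaxin gene Stx4 (-0.04 and 0.11), the endosomal genes Stx7 (-0.05 and 0.01), Stx12 (-0.08 and -0.03) and Vamp7 (-0.02 and 0.03), and Stx2 (0.42 and 0.53; adjusted p = 0.071 in limma).

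**Figure D3:**
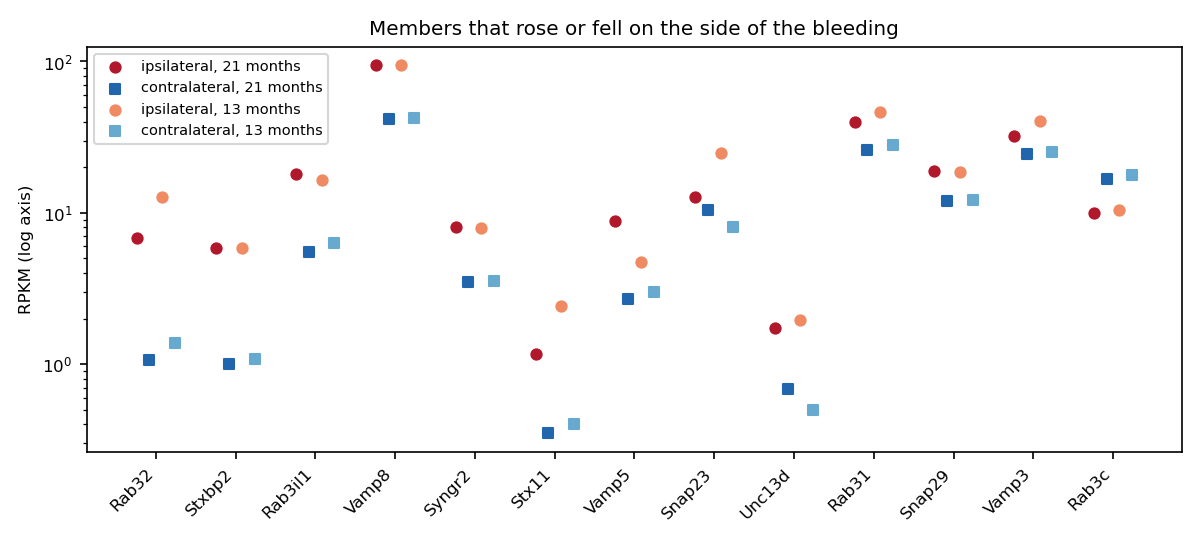
RPKM (y axis, log scale) of the 12 members that rose and of Rab3c, which fell, in limma, with 1 point per library, circles ipsilateral and squares contralateral. Both circles lie above both squares in the 12 and below them in Rab3c.

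Shares within families are given for Vamp8, Unc13d and Snap23, which rose, and for Vamp2. The members were chosen as higher ipsilaterally and the families after their values were seen, so the shares are a description, and RPKM is a level per length. Vamp8 made 20.1% ipsilaterally against 9.35% contralaterally at 21 months and 22.1% against 9.22% at 13 months of the summed RPKM of 7 VAMP genes, and Vamp2 made 52.5% ipsilaterally against 64.5% contralaterally at 21 months and 49.6% against 64.9% at 13 months. Unc13d made 10.1% ipsilaterally against 3.37% contralaterally at 21 months and 12.1% against 2.55% at 13 months of 4 Munc13 genes. The neuronal forms Vamp2, Unc13a and Snap25 remained the most abundant of their families in all 4 libraries. Snap23 made 2.85% ipsilaterally against 2.44% contralaterally at 21 months and 7.0% against 1.6% at 13 months of the 4 genes of the SNAP-25 family, so its share was near level at 21 months. A share depends on every gene of its family, and the neuronal ones were lower ipsilaterally at 13 months.

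**Figure D4:**
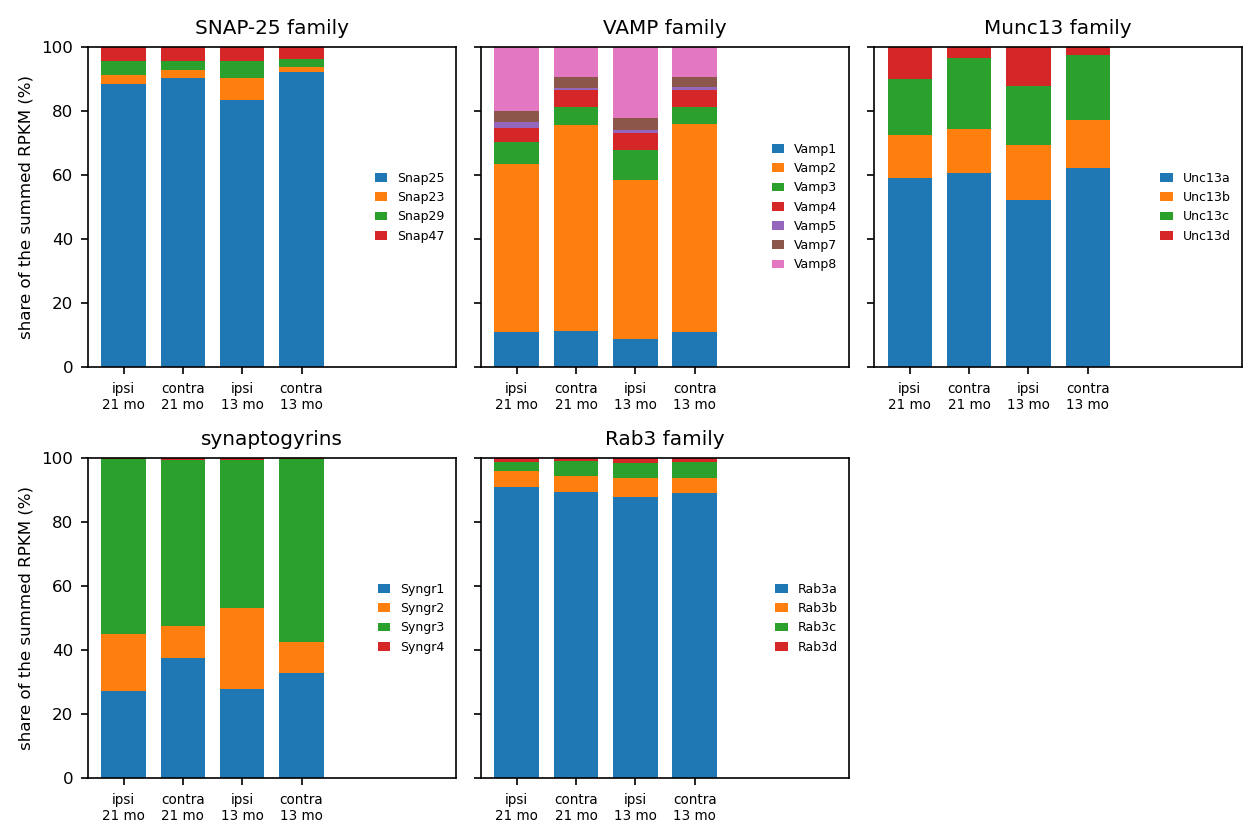
Share of each gene (%, y axis) in the summed RPKM of its family in the 4 libraries. Vamp8 holds 20.1% and 22.1% of the VAMP genes in the ipsilateral libraries of 21 and 13 months, against 9.35% and 9.22% in the contralateral ones.

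Promoter windows are shown for relatives that differed in direction (Vamp2 and Vamp8, Unc13a and Unc13d), for Rab3a and Rab3c, which differed at 21 months, and for Rab32, which had the highest ratios. Each holds 300 bases, 250 before and 50 after the gene start, from RefSeq in the build GRCr8, written 5′ to 3′ on the strand of the gene. The build of the expression values need not be the same. Capitals mark matches on either strand to the GC box GGGCGG, the cAMP response element TGACGTCA, the consensus NRF1 motif, the PU.1 motif GAGGAAGT, the ETS motif CCGGAAGT or the TATA box TATAAA. The PU.1 and ETS motifs share their ending, and a site cannot match both. The windows are Vamp2 at chr10:54292539-54292838 (+), Vamp8 at chr4:106005593-106005892 (-), Unc13a at chr16:18415737-18416036 (-), Unc13d at chr10:101810360-101810659 (-), Rab3a at chr16:18722224-18722523 (-), Rab3c at chr2:43575894-43576193 (-) and Rab32 at chr1:6781209-6781508 (-).
Vamp2: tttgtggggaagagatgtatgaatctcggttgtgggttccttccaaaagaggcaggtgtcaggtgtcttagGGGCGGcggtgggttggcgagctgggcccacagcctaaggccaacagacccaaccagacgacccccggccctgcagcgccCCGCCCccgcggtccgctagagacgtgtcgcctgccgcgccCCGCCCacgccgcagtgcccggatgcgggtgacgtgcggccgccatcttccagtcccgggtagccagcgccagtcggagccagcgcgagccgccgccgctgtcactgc
Vamp8: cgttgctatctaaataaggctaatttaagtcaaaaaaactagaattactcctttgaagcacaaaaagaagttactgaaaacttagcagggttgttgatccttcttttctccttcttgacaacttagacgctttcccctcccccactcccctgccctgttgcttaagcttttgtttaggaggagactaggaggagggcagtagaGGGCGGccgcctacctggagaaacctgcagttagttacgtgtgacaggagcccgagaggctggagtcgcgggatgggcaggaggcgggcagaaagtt
Unc13a: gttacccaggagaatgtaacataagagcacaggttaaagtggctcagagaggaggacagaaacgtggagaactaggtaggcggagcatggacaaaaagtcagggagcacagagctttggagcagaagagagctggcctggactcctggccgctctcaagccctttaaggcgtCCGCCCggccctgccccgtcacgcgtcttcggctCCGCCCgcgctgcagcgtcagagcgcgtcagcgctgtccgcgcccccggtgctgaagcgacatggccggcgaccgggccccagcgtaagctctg
Unc13d: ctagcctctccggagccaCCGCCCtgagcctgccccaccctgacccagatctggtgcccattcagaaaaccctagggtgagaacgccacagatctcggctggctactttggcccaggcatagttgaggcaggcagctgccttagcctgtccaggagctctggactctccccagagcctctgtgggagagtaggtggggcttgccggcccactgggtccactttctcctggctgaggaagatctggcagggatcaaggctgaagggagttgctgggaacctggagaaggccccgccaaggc
Rab3a: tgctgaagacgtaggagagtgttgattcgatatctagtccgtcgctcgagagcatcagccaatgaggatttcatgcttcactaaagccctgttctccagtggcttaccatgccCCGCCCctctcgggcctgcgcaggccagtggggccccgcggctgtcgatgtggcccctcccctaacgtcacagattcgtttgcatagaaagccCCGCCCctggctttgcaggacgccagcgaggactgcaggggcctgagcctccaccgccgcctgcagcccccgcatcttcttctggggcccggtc
Rab3c: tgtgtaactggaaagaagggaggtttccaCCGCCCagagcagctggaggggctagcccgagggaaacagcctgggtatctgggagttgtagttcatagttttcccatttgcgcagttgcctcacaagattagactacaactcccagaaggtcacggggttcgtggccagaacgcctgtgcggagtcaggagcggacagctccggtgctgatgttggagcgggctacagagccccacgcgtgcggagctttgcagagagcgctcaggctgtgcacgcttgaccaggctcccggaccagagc
Rab32: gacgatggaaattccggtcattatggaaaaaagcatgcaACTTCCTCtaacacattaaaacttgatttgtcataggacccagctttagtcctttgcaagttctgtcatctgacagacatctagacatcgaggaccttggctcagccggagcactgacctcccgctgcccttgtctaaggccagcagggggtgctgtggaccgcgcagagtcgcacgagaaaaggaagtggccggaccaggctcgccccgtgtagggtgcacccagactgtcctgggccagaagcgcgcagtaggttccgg
The Vamp2 window held 69.3% G and C, 31 CpG and 3 GC boxes, and that of Vamp8 49.0% G and C, 9 CpG and 1 GC box. Unc13a held 63.0% G and C, 25 CpG and 2 GC boxes, and Unc13d 62.7% G and C, 6 CpG and 1 GC box. Rab3a held 62.7% G and C, 20 CpG and 2 GC boxes, and Rab3c 59.7% G and C, 16 CpG and 1 GC box. Of the members, 76 matched a window by symbol, 42 of them presynaptic. The GC box was in 31 of 42 presynaptic windows (73.8%) and in 22 of the 34 others (64.7%), against 63.1% of 8981 windows of genes tested and 34.9% of all 27457 windows. The cAMP response element was in Vamp1, Syn1 and Napa, against 3.19% of windows of genes tested and 1.91% of all windows. The NRF1 motif was in Bsn, Stxbp5, Stx7 and Stx12, against 1.96% and 0.932%. The PU.1 motif was in Rab32 alone among the 76, against 2.47% and 2.44%, the ETS motif in Stxbp4, against 7.97% and 4.01%, and the TATA box in Stxbp5l, Syt14 and Stxbp3, against 6.45% and 14.3%. A match is a string of letters and was not tested as a binding site.

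The side ratios of the ages were then set against each other, gene by gene. Of the 53 presynaptic members 44 had a side ratio nearer to 0 at 21 than at 13 months, as did 17 of the other 38 members and 6513 of all 12160 genes. The median difference, 21-month minus 13-month side ratio, was 0.26 for presynaptic members and -0.05 for the others, against 0.05 over all genes. It was 0.53 for the oligodendrocyte, 0.35 for the astrocyte, 0.42 for the cortex and 0.07 for the neuron markers. For the microglia and macrophage markers it was -0.16, and for those of choroid plexus -0.40. A positive difference was thus not particular to presynaptic genes. Past 0.5 were 10 members upward (11%, against 9.79% of all genes) and 5 downward (5.49%, against 6.92% of all genes). Among the upward ones were Syngr3 (0.94), Vamp5 (0.88), Syt9 (0.86), Cplx3 (0.80), Rab3a (0.66), Snap25 (0.65), Syt5 (0.57), Rab36 (0.56) and Cplx1 (0.53). The downward ones were Snap23 (-1.27), Rab32 (-0.61), Stx11 (-0.61), Stx17 (-0.60) and Stx3 (-0.54), and Snap23 alone was past 1 or -1 (1.1%, against 0.757% of all genes; upward 0 members, against 0.65%). Near 0 were Stx1a (0.02), Rab3c (0.01) and Pclo (-0.03). With 1 library per group these differences have no test. Across the 91 members the 21-month and 13-month side ratios correlated with r = 0.787 (Pearson) and rho = 0.42 (Spearman), against 0.768 and 0.519 across all genes, which share the libraries and are not independent replicates.

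**Figure D5:**
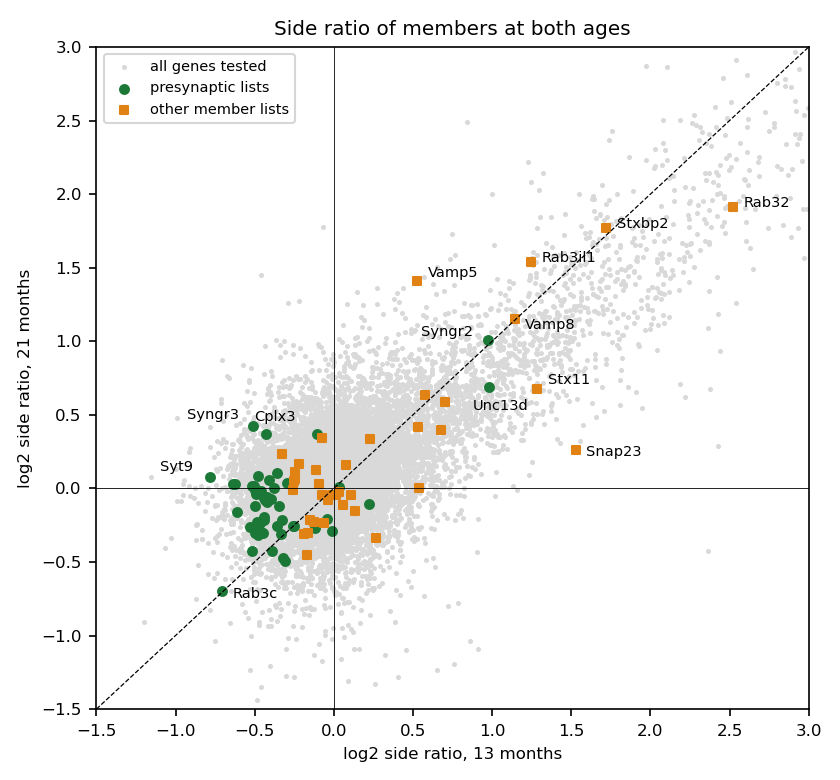
Side ratio at 13 months (x axis) against that at 21 months (y axis), both log2, for presynaptic members (green circles), other members (orange squares) and all genes tested that fall within the axes (grey), with a dashed line of equal ratios. Rab3c lies on the line at -0.71 and -0.70, and Snap23 lies far from it at 1.53 and 0.26.

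Members were also compared by age within a side. The age ratio is the log2 ratio of 21 to 13 months. Ipsilaterally the presynaptic median was 0.20, and 8 members were higher by 0.5 or more at 21 months (8.79%, against 6.53% of all genes) and 4 lower (4.4%, against 5.94% of all genes). No member reached 1 or -1 ipsilaterally (against 0.321% of all genes upward and 0.658% downward) or contralaterally (against 0.206% and 0.132%). Contralaterally the presynaptic median was -0.04, with a range from -0.33 (Syt17) to 0.45 (Syn3), and 0 members were past 0.5 (against 0.905% of all genes upward and 0.666% downward). Rab3a had an age ratio of 0.69 ipsilaterally and 0.03 contralaterally. The other 7 higher ipsilaterally were Vamp5 (0.77), Cplx3 (0.76), Syngr3 (0.74), Syt10 (0.64), Syt9 (0.62), Rab36 (0.54) and Napa (0.51). The 4 lower were Snap23 (-0.91), Rab32 (-0.82), Stx11 (-0.66) and Stx17 (-0.50). The 13-month ipsilateral library was the lowest of the 4 in 40 of 53 presynaptic members and in 48 of all 91 (52.7%, against 31.9% of all genes). The 13-month side ratios and the ipsilateral age ratios share that library and are not separate evidence.

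Genes of the pathway outside the symbol rule were counted in lists by function, whose counts stand against 13.3% of all genes risen and 0.814% fallen. Of 26 further presynaptic genes tested 1 fell, 0 rose and 25 did not pass in limma, with median side ratios of -0.12 and -0.35. The one that fell was Slc17a6, a vesicular glutamate transporter, with 10.6 RPKM ipsilaterally against 13.7 RPKM contralaterally at 21 months, and 8.06 RPKM ipsilaterally against 14.2 RPKM contralaterally at 13 months (adjusted p = 0.04 in limma); it is also one of the 8 thalamus markers. Its relative Slc17a7 had side ratios of 0.31 and -0.47, so the glutamate transporters did not follow one course. Ppfia3, a liprin scaffold (-0.50 and -0.48), and Cadps, a priming factor (-0.43 and -0.45), were the lowest by whichever of the side ratios lay nearer to 0, and Sypl1, a synaptophysin relative (0.07 and 0.47), was the 1 gene of the list above 0 at both. Of 21 endocytic genes 2 rose, Picalm (0.51 and 0.73), a clathrin adaptor, and Dnm2 (0.45 and 0.68), the broadly expressed dynamin, and 0 fell. The lowest at 21 months were Dnm3 (-0.28 and -0.35) and the clathrin light chain gene Cltb (-0.25 and -0.29), and at 13 months Pacsin1 (-0.22 and -0.64), which binds dynamin, and the endophilin gene Sh3gl2 (-0.24 and -0.56). Of 10 genes tested for granule secretion 5 rose, Cd63 (1.56 and 1.80), Rab27a (0.84 and 1.03), Lamp2 (0.96 and 0.76), Coro1a (0.83 and 0.72) and Lamp1 (0.39 and 0.67), and 0 fell. Not called were Sytl2 (0.68 and -0.15), Sytl4 (-0.19 and -0.01), Sytl5 (0.03 and -0.34), Myrip (-0.08 and -0.47) and Exph5 (-0.10 and -0.04). In 13 other SNARE, 5 other Munc18-like and 9 exocyst genes 0 passed in limma, and 0 had an unadjusted p under 0.05. Of all 12160 genes, 2299 higher and 544 lower ones reached that unadjusted limit.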

How the data were processed

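RNA of pooled rat brain tissue was selected with oligo(dT) and sequenced as directional libraries, per the labels' protocols. The authors deposited RPKM values per gene, rounded to 2 decimals. The submitters' processing notes name cutadapt, TopHat2, edgeR and the build GRCh38 without roles, although the gene IDs are rat Ensembl IDs. How reads were counted, which gene lengths were used and how expressed genes were filtered is not given in the sources used here. From the deposited RPKM, log2(RPKM + 1) was taken, which understates the change of low genes, and genes averaging 1 RPKM or more were kept. Summed RPKM per library ranged from 388632 to 402100, and mitochondrial genes took 18.5% to 24.1% of it. Side was tested over both ages in limma 3.58.1 (R 4.3.3), with age as a term, 1 residual and 19.5 prior degrees of freedom and Benjamini-Hochberg adjustment. The SE and p-values rest mostly on a variance pooled over all genes of these libraries, which may be technical. The residual of a gene is its difference in side ratio between the ages, so they do not measure its spread between replicates. Tested on simulated data for this comparison over 12160 genes, the fit recovered 99 of 100 genes shifted by 1 and 100 of 100 shifted by 2 on the log2 scale, with 13 calls among the others. The simulated noise was normal, independent and of the fitted variance, and side ratios did not differ between ages beyond it. The recovery therefore checks the fit under its own assumptions and not the real libraries. Other ratios compare 2 libraries and have no test. Members and lists were chosen with earlier results of these data known. Genes given in full were core genes of the machinery, those past a log2 ratio of 1, those called in limma, and the highest and lowest of each list; further members named were chosen after their values were seen. Results for 2 single members are not reported here; they are counted in the totals. Of the listed genes, Sv2b, Rab39b, Stx10 and Stx19 were not used here. Alternatives were another pseudocount (0.1), other filters (none, or a mean of at least 5 RPKM), 2 scalings, a size limit of 0.5, a fit without age and a trend of the prior variance.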

Additional observations from a re-analysis of the deposited data

Results flagged for a closer look

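In 9 of the members reported here the side ratio had opposite signs at the 2 ages and differed by 0.5 or more. The difference was not tested, since each group held 1 library. It was 0.53 for Cplx1, 0.80 for Cplx3, 0.65 for Snap25, 0.94 for Syngr3, 0.57 for Syt5, 0.86 for Syt9, 0.66 for Rab3a, 0.56 for Rab36 and -0.60 for Stx17 (21-month minus 13-month side ratio, log2). In 8 of the 9 the 21-month ratio was the higher one. Of the 91 members tested, 29 had opposite signs, 45 (49.5%) lay below 0 at both ages and 16 (17.6%) above 0 at both. Of all 12160 genes, 3219 (26.5%) lay below 0 at both ages and 4671 (38.4%) above 0 at both. Opposite signs were thus not particular to the members. The share of all genes that would be flagged was not counted. For Snap25 and Rab3a the 21-month ratio was below 0 under both scalings, so that the signs then no longer differed. The other flagged members were not followed over the scalings. Cplx1 (0.01), Syt9 (0.08) and Syt5 (0.09) also had 21-month ratios just above 0, so their opposite signs may depend on the scaling too.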

How the results depend on the processing

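Age as a term pairs the sides of each age. No fit by replicate number was made, since the labels give none and each group held 1 library, and leaving out a library would leave a group empty. Each summary value was compared with its main value in each alternative, the size limit of 0.5 included. Of these comparisons 108 stayed close in size (medians within 0.1), 15 moved and 1 reversed. For medians within 0.1 a change of sign was not checked. When low genes were kept, limma called 0 members as risen and 0 as fallen, and 0 of all 17853 genes. An unadjusted p under 0.05 was reached by 12 higher and 17 lower of 97 members. Of all 17853 genes, 2641 higher and 719 lower ones reached it. The prior degrees of freedom were then 1.56. With a mean of at least 5 RPKM 7 members rose, over fewer genes tested. Members that fell numbered 2 with median-ratio scaling and 2 with equal sums without mitochondrial genes, Rims1 being added (log2 difference -0.53 and -0.57, adjusted p = 0.027 and 0.047 in limma). These scalings moved the median 21-month side ratio of all genes to -0.0047 and -0.01, and the second turned the 21-month median of the other 3 role lists to -0.048; the cause was not tested. With a pseudocount of 0.1, 1 member (Syt10) was higher by 1 or more at 21 months ipsilaterally, and 2 (Vamp5 and Syt9) in the difference between ages. With a size limit of 0.5, 10 members were higher and 1 lower at 21 months, 14 higher and 11 lower at 13 months, 8 higher and 4 lower by age ipsilaterally, and 10 higher and 5 lower in the difference between ages. For single genes, 24 calls were lost over the alternatives, 13 of them with no filter and 5 of them those of Vamp3 under other settings, and 2 were gained, both for Rims1. Snap23, Stx11 and Vamp5 were lost without age as a term (adjusted p = 0.16, 0.056 and 0.084 in limma), and Snap23, Rab31 and Snap29 at equal sums without mitochondrial genes (adjusted p = 0.095, 0.0606 and 0.076 in limma). Read depth is unknown, so the precision of low values could not be given.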

Other observations

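Cplx4, a complexin known from ribbon synapses of the retina, was under the level filter. It was listed at 0 RPKM in the 21-month ipsilateral library and 0.07 RPKM in the contralateral one, and at 0 RPKM in the 13-month ipsilateral library and 0.82 RPKM in the contralateral one. The 13-month contralateral library also had the highest values of the pineal and retinal genes Tph1 (10.4 RPKM), Gngt1 (6.05 RPKM) and Pde6g (11.0 RPKM), which were at most 1.27 RPKM in the other 3 libraries. These 3 were picked from a list of 12 after their values were seen; of the other 9, Gngt2 was higher ipsilaterally (21.9 RPKM ipsilaterally against 1.41 RPKM contralaterally at 21 months, and 31.97 RPKM ipsilaterally against 3.23 RPKM contralaterally at 13 months), Rom1 was between 4.0 and 6.26 RPKM, and 7 were under the level filter. The part of such tissue in the value of Cplx4 was not tested.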
